A study of Mus musculus with 18 samples.

Results

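A set of 10 genes used as markers of fat cells were followed in hindlimb muscle RNA of mice aged 2, 20 and 28 months (2 m, 20 m and 28 m). They are Adipoq, Lep, Retn and Cfd, which encode proteins that fat cells secrete, Plin1 and Cidec, which encode coats of the lipid droplet, Fabp4, Scd1 and Pck1, which encode proteins of fatty acid handling and of glyceride and glucose synthesis, and Ucp1, which encodes the uncoupling protein of brown fat. The 10 genes were chosen by name from the 23420 genes of the muscle RNA table, by a rule that names them and uses no measured value, although earlier results of these data were known when they were chosen. All 10 had a row and all 10 passed the filter of a mean of at least 10 normalized counts. Ucp1 passed it through 2 of the 2-m mice only.

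The animals were female C57BL/6J mice, 3 at each age, with no genetic change and no treatment, and RNA was sequenced from each mouse apart. The whole hindlimb muscles of a mouse were frozen and ground to powder before poly-A RNA was taken, so every cell type of the tissue, fat between the muscles included, could contribute. DNA of the 3 mice of an age was pooled, from muscle and from spleen T cells, and its methylated fragments were isolated on a protein domain that binds methylated CpGs and were sequenced (MBD-seq). The RNA values are normalized read counts, the reads of a gene divided by a size factor for the library, and 1 read was worth between 0.545 and 2.23 normalized counts.

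White adipocytes store triglyceride in a single large droplet, on whose surface perilipin 1 (Plin1) controls access of lipases, and they release hormones such as leptin (Lep) and adiponectin (Adipoq) into the blood. Their gene programme is switched on during differentiation by PPARgamma and by factors of the C/EBP family. In skeletal muscle, adipocytes lie between the fibres and around the muscles, and their precursors are the fibro-adipogenic progenitors of the muscle interstitium. Some of the 10 genes are also used outside fat cells, since capillary endothelium and macrophages make Fabp4, and many tissues make Scd1.

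The libraries held between 20203833 and 71115244 reads on genes. The 8 muscle fibre markers summed to between 5359248 and 6892001 normalized counts in each library, and none of them was at 0. The mice numbered 3 stood apart at every age, with the 10 most abundant genes taking from 29.6 to 32.5% of the reads, against 43.1 to 48.4% in the other mice. The 2-m mouse 1 carried transcripts of other tissues, with 5140 normalized counts summed over 7 marrow myeloid genes (14.9 to 74.2 in the other 8 mice) and 2010 over 6 bone and cartilage genes (11.8 to 121 in the others). The 28-m mouse 2 held 3948 normalized counts over 5 keratinocyte genes, against 48.9 to 104 in the others. The counts of members are given with and without these mice, and so are those of other lists where leaving them out moved the count by over 1.5 times.

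The promoters of the genes were searched for short binding sequences, and the C/EBP matches are shown first because these factors direct the adipocyte programme and Cebpa, which encodes C/EBPalpha, fell at 20 m. Promoters were those of RefSeq on GRCm38.p6, 250 bases before to 50 bases after an annotated start, and 8 of the 10 genes had an entry. The letters TTGCNNAA were found on either strand in the promoters of 3 of these 8 genes, Lep, Plin1 and Cidec, and in 10.8% of all 32851 promoters. Each line gives 30 bases on the strand of the gene, with the match in capitals.
Lep, first base of the match at -55 from the start, chr6:29060155-29060184, + strand: tggccggacagTTGCGCAAgtggcactggg
Plin1, at -58, chr7:79732816-79732845, - strand: tctgagaggcaTTGCCCAAgattccctgga
Plin1, at -187, chr7:79732945-79732974, - strand: ccacctctttaTTGCCTAAacatcccccat
Cidec, at -198, chr6:113434944-113434973, - strand: ggagggctctaTTGCTCAAgggcccatggg
For Plin1 and Cidec the start that these distances refer to lies inside the outer ends of the gene. The promoters of the other 5 genes did not hold the letters in this window, which says nothing about the factors. A nuclear receptor half-site, AGGTCA, occurred in 1 of the 8 genes, Ucp1, and in 16.26% of all promoters. A CCAAT box occurred in 1 of the 8, Adipoq, and in 37.41% of all promoters. The match closest to the start is shown for each of these genes.
Ucp1, AGGTCA, at -14, chr8:83290318-83290347, + strand: gctatatagatctcccAGGTCAgggcgcag
Adipoq, CCAAT, at -7, chr16:23146506-23146535, + strand: gctattggccttgactgggttggCCAATgg
A TATA box, with the letters TATAAA, an E-box, with CACGTG, and a sterol response element, with TCACNCCAC, occurred in 0 of the 8 genes, and in 13.62, 7.15 and 1.242% of all promoters. A match is a description of letters and does not show a bound site.

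Most of the 10 genes, though not Lep, had lower RNA levels in the 20-m muscle than in the 2-m muscle. At an adjusted p under 0.05 (limma over 13178 genes, Benjamini-Hochberg), 6 of the 10 genes fell, Adipoq, Retn, Cfd, Plin1, Cidec and Scd1, and 0 rose (0 also at an unadjusted p under 0.05, by edgeR and by DESeq2), whereas 7.13% of all genes tested fell and 9.42% rose. Cfd fell most of the 6, from 1889 ± 1049 to 285 ± 37.8 normalized counts (SD, n = 3 mice per age), followed by Retn and Scd1. The members' median difference on the log2 scale was -1.56, against -0.02 for all genes, and 9 of the 10 were lower at 20 m. Ucp1 is among these 9 and passed the filter only through the 2-m mice, so its place there supports nothing. Against 2 m, 3 of the 10 fell at 28 m, Cfd, Cidec and Scd1, and 0 rose (0 also at an unadjusted p under 0.05, by edgeR and by DESeq2), where 6.24% of all genes fell and 7.53% rose, and the median difference was -1.24 against -0.01. Over the 9 members without Ucp1, the medians against 2 m were -1.50 at 20 m and -1.01 at 28 m. Between 20 m and 28 m, 0 of the 10 passed in limma, where 0.212% of all genes rose and 0.167% fell. In that contrast Cfd, Retn and Scd1 were higher at an unadjusted p under 0.05, and edgeR called 0 of the 10 and DESeq2 called 1, Retn. Fewer fat cells and less RNA per fat cell cannot be told apart in bulk muscle.

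**Figure D1:**
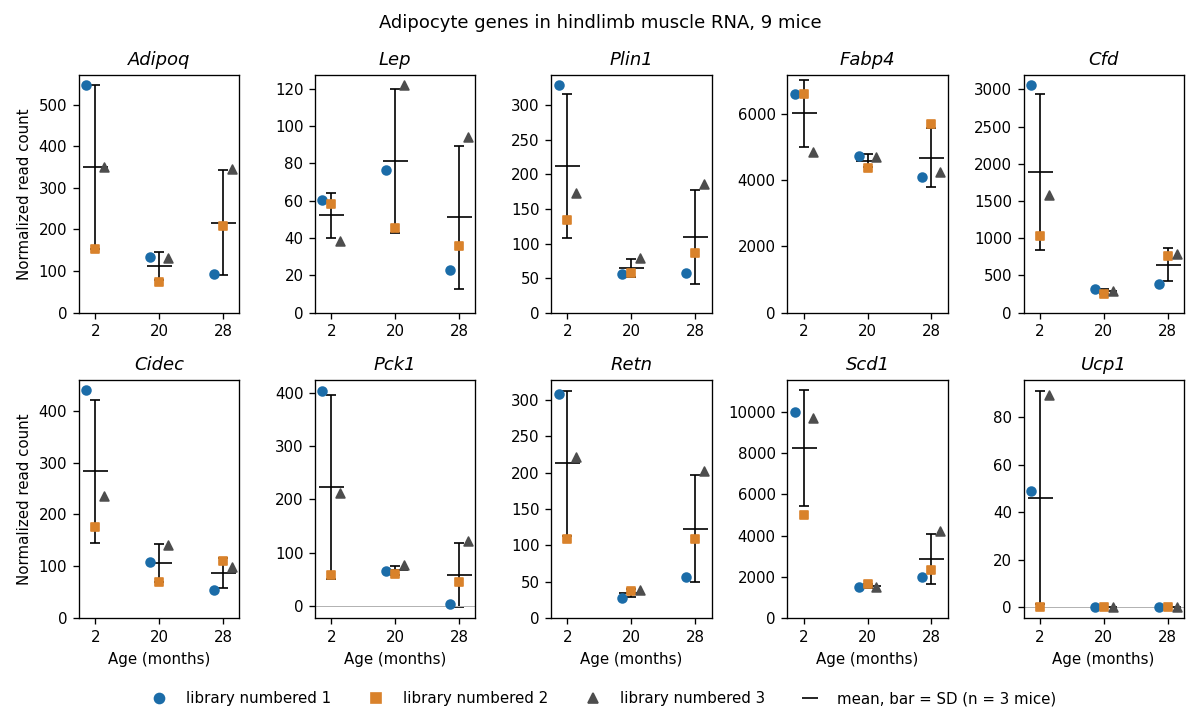
Normalized read count (vertical axis, linear, 0 included) of each of the 10 adipocyte genes at 2, 20 and 28 months, with each mouse as a point whose shape gives its library number and bars for the mean and SD of 3 mice. The 20-m mice lie below each 2-m mouse for Adipoq, Plin1, Cfd, Cidec, Retn, Scd1 and Fabp4, and those of Lep run from 45.6 to 122, while Ucp1 is above 0 in 2 mice of 2 m and in no older mouse.

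Adipoq encodes adiponectin, the secreted protein most used to mark adipocytes (chr16:23146536-23157968, + strand, GRCm38). Its normalized counts were 548, 153 and 350 in the 2-m mice 1, 2 and 3, 133, 74.2 and 130 in the 20-m mice, and 93.0, 209 and 345 in the 28-m mice. Each 20-m mouse lay below each 2-m mouse, while the 28-m mice overlapped both other ages. The mean was 3.12-fold lower at 20 m than at 2 m, a difference of -1.50 on the log2 scale (SE 0.478, adjusted p = 0.0494 by limma). The call lay at the threshold and was lost under 11 of 22 alternatives, and without the 2-m mouse 1 the difference was -1.09 (adjusted p = 0.180). The call was likewise lost without the 2-m mouse 3 (0.110), the 20-m mouse 1 (0.0918), 2 (0.168) or 3 (0.0713), or the 28-m mouse 2 (0.0658). At 28 m the differences were -0.71 from 2 m (adjusted p = 0.365) and 0.79 from 20 m (adjusted p = 0.604).

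Lep encodes leptin, the hormone through which fat stores are sensed by the brain (chr6:29060221-29073876, + strand). It gave 60.2, 58.2 and 38.3 normalized counts in the 2-m mice, 76.6, 45.6 and 122 in the 20-m mice, and 22.8, 35.9 and 94.4 in the 28-m mice. The 3 ages overlapped, and the highest mouse at both old ages was the one numbered 3. Lep was the member with a positive difference at 20 m against 2 m, 0.55 (SE 0.485, adjusted p = 0.472), and it was not called in any contrast. From 2 m to 28 m its difference was -0.25 (SE 0.485, adjusted p = 0.777).

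Retn encodes resistin, in mice a hormone made by white fat (chr8:3655770-3659818, + strand). The 2-m mice had 308, 109 and 222 normalized counts, the 20-m mice 28.0, 37.1 and 38.7, and the 28-m mice 56.9, 109 and 202. The 20-m mice lay below every other mouse, and the 28-m mice overlapped the 2-m mice. At 20 m the mean was 6.15-fold lower than at 2 m (log2 difference -2.48, SE 0.436, adjusted p = 0.00262), a call kept in 22 of 22 alternatives. At 28 m it was 3.54-fold higher than at 20 m, with a log2 difference of 1.63 (unadjusted p = 0.00262, adjusted p = 0.161 by limma and 0.00457 by DESeq2). Against 2 m the 28-m difference was -0.85 (adjusted p = 0.226).

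Cfd encodes adipsin, a serine protease of the alternative complement pathway that adipocytes secrete in large amounts (chr10:79890853-79892655, + strand). Its normalized counts were 3056, 1026 and 1585 at 2 m, 319, 245 and 292 at 20 m, and 385, 758 and 791 at 28 m. The 3 ages did not overlap, with the 28-m mice between the 20-m and the 2-m mice. The mean was 6.62-fold lower at 20 m than at 2 m (log2 difference -2.58, SE 0.337, adjusted p = 0.000333) and 2.93-fold lower at 28 m (-1.47, adjusted p = 0.0125). The 20-m call was kept in 22 of 22 alternatives and the 28-m call in 20, being lost without the 28-m mouse 1 (adjusted p = 0.0573) and without the 3 mice numbered 3 (0.0553). From 20 m to 28 m Cfd was 2.26-fold higher, 1.11 on the log2 scale (adjusted p = 0.236, and 0.0453 where the 2-m mice were left out of the fit).

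Plin1, the droplet coat perilipin 1, is close to specific to adipocytes (chr7:79721164-79732904, - strand). It had 330, 134 and 173 normalized counts at 2 m, 56.0, 57.4 and 79.0 at 20 m, and 56.9, 85.6 and 187 at 28 m. The 20-m mice were all below the 2-m mice, and the 28-m mouse 3 was above 2 of the 2-m mice. The mean was 3.31-fold lower at 20 m (log2 difference -1.62, SE 0.406, adjusted p = 0.0172). The call was lost without the 2-m mouse 1 (-1.25, adjusted p = 0.0730), the 20-m mouse 1 (0.0683) or the 20-m mouse 2 (0.0601). At 28 m the difference from 2 m was -1.01 (adjusted p = 0.121), and it passed only without the 28-m mouse 3 (-1.48, adjusted p = 0.0292).

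Cidec encodes a droplet protein that promotes fusion of small droplets into a large one (chr6:113424634-113435760, - strand). A second gene, Gm52871, overlaps it on the other strand, had no row of its own, and the library kit did not mark strand, so reads of both could not be told apart. The normalized counts were 439, 176 and 235 at 2 m, 108, 69.2 and 141 at 20 m, and 55.0, 110 and 98.1 at 28 m. Each older mouse lay below each 2-m mouse. Cidec differed from 2 m by -1.36 on the log2 scale at 20 m (SE 0.362, adjusted p = 0.0234) and by -1.63 at 28 m (SE 0.362, adjusted p = 0.0108), and unlike Retn, Cfd, Scd1, Plin1 and Adipoq it had a lower mean at 28 m than at 20 m (-0.27, adjusted p = 0.845). The 20-m call was lost without the 2-m mouse 1 (adjusted p = 0.0944), the 20-m mouse 1 (0.0655) or the 20-m mouse 2 (0.0980), and the 28-m call without the 28-m mouse 1 (0.0516). Both were lost without the 3 mice numbered 3 (-1.67, adjusted p = 0.0538, and -1.82, adjusted p = 0.0519).

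Fabp4 encodes a fatty acid binding protein of the adipocyte cytosol (chr3:10204342-10208616, - strand). It was the most abundant member per kilobase of transcript and the one with the least spread, with 6582, 6587 and 4851 normalized counts at 2 m, 4711, 4360 and 4682 at 20 m, and 4091, 5689 and 4224 at 28 m. The 20-m mice lay just below the lowest 2-m mouse, mouse 3, and the 28-m mice overlapped the 2-m mice. Its mean was 1.31-fold lower at 20 m (log2 difference -0.38, SE 0.136, adjusted p = 0.0767) and 1.29-fold lower at 28 m (-0.37, adjusted p = 0.0951). Neither difference passed in the main limma fit or by edgeR, while DESeq2 called the first (adjusted p = 0.0394). Limma called both with the replicate block (0.0372 and 0.0464). It called the first with a term for the libraries numbered 3 (0.0412) or with quantile normalization (0.0425). Fabp4 would pass in both contrasts without the 2-m mouse 3 (adjusted p = 0.0171 and 0.0206) or without the 28-m mouse 2 (0.0368 and 0.0186).

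Scd1 encodes the desaturase that makes oleate from stearate (chr19:44394450-44407709, - strand). The 2-m mice had 9988, 5015 and 9711 normalized counts, the 20-m mice 1519, 1669 and 1494, and the 28-m mice 1979, 2355 and 4243. The 3 ages did not overlap, and the 20-m mice differed from each other by little. The mean was 5.28-fold lower at 20 m (log2 difference -2.33, SE 0.271, adjusted p = 0.000158) and 2.88-fold lower at 28 m (-1.54, adjusted p = 0.00272). Scd1 was called in 22 of 22 alternatives in each of these contrasts, the only member for which that held at 28 m. From 20 m to 28 m the mean was 1.83-fold higher, 0.79 on the log2 scale (unadjusted p = 0.0118, adjusted p = 0.306).

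Pck1 encodes the cytosolic phosphoenolpyruvate carboxykinase, which in fat makes glycerol phosphate for triglyceride (chr2:173153073-173159274, + strand). Its normalized counts were 403, 58.2 and 212 at 2 m, 65.4, 59.1 and 76.3 at 20 m, and 3.80, 45.6 and 123 at 28 m. The lowest of these, in the 28-m mouse 1, came from 2 reads, against 33 and 65 in the other 28-m mice, and the 2-m mouse 2 lay below each 20-m mouse. The differences from 2 m, -1.35 at 20 m (SE 0.932, adjusted p = 0.351) and -2.51 at 28 m (SE 0.932, adjusted p = 0.0959), did not pass. The second passed without the 2-m mouse 2 (-3.28, adjusted p = 0.0337) or the 28-m mouse 3 (-3.52, adjusted p = 0.0296), or with each library at the same sum (-2.46, adjusted p = 0.0285).

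Ucp1 encodes the protein through which brown adipocytes turn fuel into heat (chr8:83290348-83298456, + strand). It had 49.0, 0 and 89.5 normalized counts in the 2-m mice 1, 2 and 3, from 22, 0 and 124 reads, and 0 reads in each of the 6 older mice. With 3 reads taken as the limit that a count of 0 allows, the 20-m mice could hold up to 5.60, 5.06 and 1.63 normalized counts, the 28-m mice up to 5.69, 4.14 and 5.66, and the 2-m mouse 2 up to 5.29. Against the mean of these limits, the mean at 2 m was at least 11.3-fold higher than at 20 m and at least 8.94-fold higher than at 28 m. The fitted differences from 2 m at 20 m and 28 m had an SE of 1.74 and did not pass by limma (adjusted p = 0.132 and 0.149) or DESeq2 (0.156 and 0.218), whereas edgeR on the recovered reads called both (0.0252 and 0.0398). Without the 2-m mouse 2 limma gave 0.0189 and 0.0206, but that leaves out the single young mouse at 0 and supports nothing. With these limits Ucp1 still had the lowest difference of the members, so their median could not move.

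**Figure D2:**
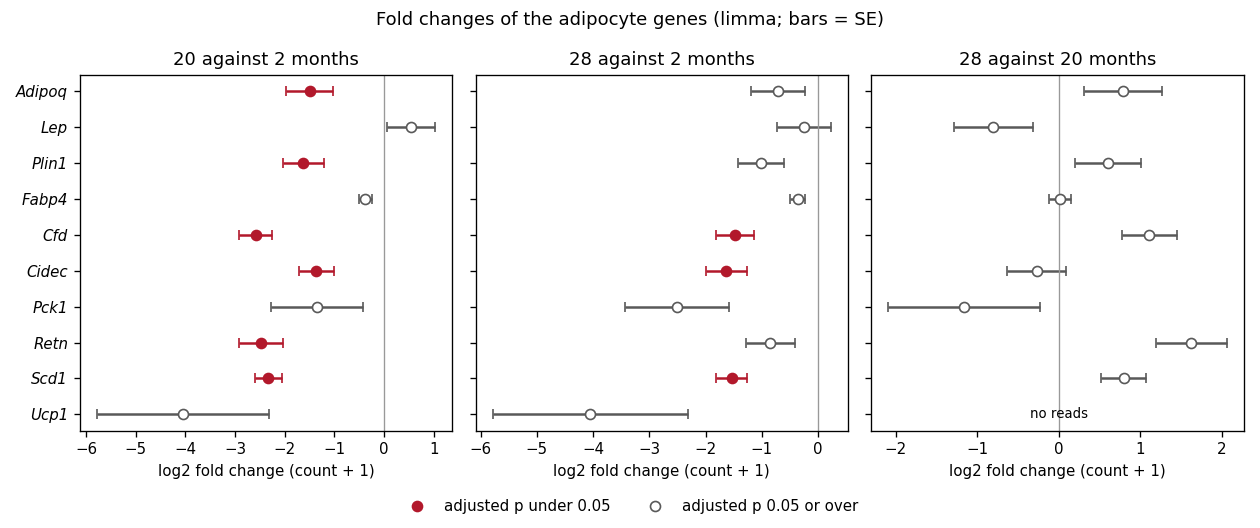
Difference in log2 (normalized count + 1) of each adipocyte gene in the 3 contrasts (horizontal axis, limma, bars are the SE), filled where the adjusted p is under 0.05. The 6 filled genes at 20 m against 2 m lie between -2.58 and -1.36, the 3 at 28 m against 2 m between -1.63 and -1.47, and none is filled at 28 m against 20 m.

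With the thresholds of the study, a fold over 2 and an unadjusted p under 0.05, applied here to the limma values, 7 members fell at 20 m (2.9% of all genes), the 6 above and Ucp1. Ucp1 passed the filter only through the 2-m mice, so its place in these counts supports nothing. By the same thresholds 6 fell at 28 m against 2 m (2.48%), Cfd, Cidec, Pck1, Plin1, Scd1 and Ucp1, and 2 rose from 20 m to 28 m, Cfd and Retn (0.926%). Plin1 at 28 m lay at the fold limit, with a log2 difference of -1.01 by limma and of -0.95 by DESeq2, which is under it. Counted by groups that did not overlap, 7 members were lower at 20 m than at 2 m (17.6% of all genes), 3 were lower at 28 m than at 2 m (15%), and 3 were higher at 28 m than at 20 m (8.63%), Cfd, Retn and Scd1. The 3 contrasts share their mice, so these counts are not independent of each other.

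The spread between mice was wider for most of these genes than the median of all genes, a comparison not matched for level. At 2 m the members' coefficient of variation had a median of 48.7%, against 12.0% for all genes tested, at 20 m it was 16.6% against 9.79%, and at 28 m 58.6% against 11.9%. Fabp4 (4.25%) and Scd1 (6.06%) lay below the median of all genes at 20 m. The order of the mice was shared by most members at 2 m and 28 m and was mixed at 20 m. The 2-m mouse 1 was the highest for 8 of the 10 genes and the 2-m mouse 2 the lowest for 8, while the 28-m mouse 3 was the highest for 7 of the 9 genes with reads and the 28-m mouse 1 the lowest for 9 of 9. At 20 m the highest was mouse 3 for 5, mouse 1 for 3 and mouse 2 for 1 of these 9 genes, and mouse 2 was the lowest for 6. The 2-m mouse 1 is also the one that carried marrow, bone and cartilage transcripts, and the part of these in its adipocyte levels was not tested. Without it, 3 members fell at 20 m, Cfd, Retn and Scd1, and 3 at 28 m, Cfd, Cidec and Scd1. Without it and the 28-m mouse 2 together, the counts were again 3 and 3. Without the 3 mice numbered 3, 5 members fell at 20 m, Plin1, Fabp4, Cfd, Retn and Scd1, and 1 at 28 m, Scd1. Without the 28-m mouse 1, 1 member fell at 28 m, Scd1. Without the 20-m mouse 1 or mouse 2, 3 members fell at 20 m, Cfd, Retn and Scd1, and without the 28-m mouse 3, 5 fell at 28 m. The count at 28 m was also 5 without the 2-m mouse 2, among them Ucp1, for which that leaves out the single young mouse at 0. Without the 28-m mouse 2, 6 fell at 20 m, with Fabp4 in place of Adipoq, and 4 at 28 m, Fabp4 being added.

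Per kilobase of the longest annotated transcript, the mean levels at 2 m ran in the order Fabp4 (8808 normalized counts per kb), Cfd (2049), Scd1 (1703), Adipoq (285), Retn (187), Cidec (165), Plin1 (111), Pck1 (85.1), Ucp1 (28.1) and Lep (16.0). Fabp4 stood above Cfd, and Scd1 above Adipoq, in every mouse, while all other neighbours overlapped between mice. At 20 m Scd1 (323) and Cfd (310) overlapped and both lay above Adipoq (91.2), and from Adipoq down to Lep (25.0) each gene overlapped the next. At 28 m the levels of Fabp4 (6844), Cfd (699), Scd1 (591) and Adipoq (175) kept the order of 2 m, with the same 2 steps free of overlap.

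Among genes that are not members, the 5 whose log2 levels were most like those of Adipoq over the 9 mice were Klhdc7a, Arsi, Mov10, Col8a2 and Trf. Likeness was the root mean square difference of log2 levels after each gene's mean was removed, which was 0.26 for Klhdc7a, 0.27 for Arsi, 0.33 for Mov10, 0.41 for Col8a2 and 0.41 for Trf, on a scale where the levels of Adipoq themselves had a root mean square of 0.90. Klhdc7a had 105, 15.9 and 62.1 normalized counts in the 2-m mice. The differences at 20 m against 2 m were -1.37 for Klhdc7a, -1.37 for Mov10 and -0.97 for Trf, which encodes transferrin, and they are given with no test because the genes were picked for following Adipoq. Among the members, Plin1 was the closest to Adipoq (0.34), followed by Retn (0.53) and Cfd (0.54), whereas Lep (1.03), Pck1 (1.16) and Ucp1 (1.99) were farther from it than the scale of Adipoq itself.

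Other adipocyte genes were split. Of 16 genes listed, 15 were in the table. At 20 m against 2 m 4 fell (7.13% of all genes), Adrb3, Mrap, Thrsp and Cebpa, and 1 rose (9.42%), Plin4, with a median of -1.08. Thrsp, a lipogenic nuclear protein, had 1228, 615 and 1193 normalized counts at 2 m, 232, 241 and 224 at 20 m and 281, 381 and 445 at 28 m, without overlap between the ages. It fell at 20 m (-2.05, adjusted p = 0.000153) and at 28 m against 2 m (-1.41, adjusted p = 0.00199), where limma called no other gene of this list, while edgeR and DESeq2 each called 1 that rose and 2 that fell. Adrb3, the beta-3 adrenergic receptor of fat, had 89.2, 10.6 and 44.8 normalized counts at 2 m, 0, 1.69 and 1.63 at 20 m, and 5.69, 11.0 and 67.9 at 28 m. It fell at 20 m (adjusted p = 0.0120), where 0, 1 and 3 reads were counted in the 20-m mice. Mrap, an accessory protein of the melanocortin receptors, had 62.4, 5.29 and 58.5 normalized counts in the 2-m mice and 6.91 or less in each older mouse. It passed the filter only through 2 of the 2-m mice, so its call supports nothing.

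Cebpa, the differentiation factor, had 452, 203 and 243 normalized counts at 2 m and 121, 127 and 137 at 20 m (-1.13, adjusted p = 0.0171), and 150, 235 and 274 at 28 m. Pparg, the other main factor of the adipocyte programme, was measured at 118 ± 29.1, 139 ± 35.8 and 145 ± 30.3 normalized counts in order of age, with a difference of 0.22 at 20 m (adjusted p = 0.585). Plin4, a droplet coat that muscle fibres also make, moved the other way, from 6104 ± 482 to 10057 ± 1142 at 20 m (0.72, adjusted p = 0.000372), and fell again to 6974 ± 387 at 28 m (-0.52 against 20 m, adjusted p = 0.0345). Without the 2-m mouse 1, 1 gene of this list fell and 2 rose at 20 m, and 1 rose at 28 m against 2 m. Without the mice numbered 3, 1 fell and 1 rose at 20 m. The fall of Plin4 from 20 m to 28 m was lost without the 2-m mouse 1, the 28-m mouse 2 or the mice numbered 3.

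Scd1 fell together with transcripts of other fatty acid synthesis genes. Of 17 genes of fatty acid synthesis and esterification, 10 fell at 20 m (7.13% of all genes) and 9 at 28 m against 2 m (6.24%). In both contrasts 0 rose (0 also at an unadjusted p under 0.05, by edgeR and by DESeq2). The medians were -0.61 and -0.42 on the log2 scale, against -0.02 and -0.01 for all genes. From 20 m to 28 m, limma and edgeR called 0 of the 17 and DESeq2 called 1, with 5 higher and 4 lower at an unadjusted p under 0.05 and a median of 0.09. Fasn, the fatty acid synthase, had 7063, 2571 and 7551 normalized counts at 2 m, 516, 606 and 537 at 20 m, and 987, 1161 and 2784 at 28 m. Its mean was 10.4-fold lower at 20 m (-3.22, SE 0.393, adjusted p = 0.000222) and 3.48-fold lower at 28 m (-1.81, adjusted p = 0.00970), and the 28-m mouse 3 lay above the lowest 2-m mouse. Elovl6, which elongates palmitate, fell from 397 ± 144 to 31.2 ± 10.2 at 20 m (-3.61, adjusted p = 0.000445) and was at 130 ± 88.7 at 28 m (-1.81 against 2 m, adjusted p = 0.0275).

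Slc25a1, the mitochondrial citrate carrier, fell by 2.56 at 20 m (adjusted p = 0.000301) and by 1.69 at 28 m (adjusted p = 0.00505), and Acly, which cleaves exported citrate to acetyl-CoA, by 1.56 (adjusted p = 0.000676) and 1.02 (adjusted p = 0.0100). The glyceride synthesis gene Gpam and the carbohydrate sensor Mlxipl were not called, with differences at 20 m of -0.0017 and 0.00029. Without the 2-m mouse 1, 8 genes fell at 20 m and 7 at 28 m. Without the 3 mice numbered 3 the counts were 7 and 6. These enzymes work in liver and muscle fibres as well as in fat, and which cells lost the transcripts cannot be told apart here.

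**Figure D3:**
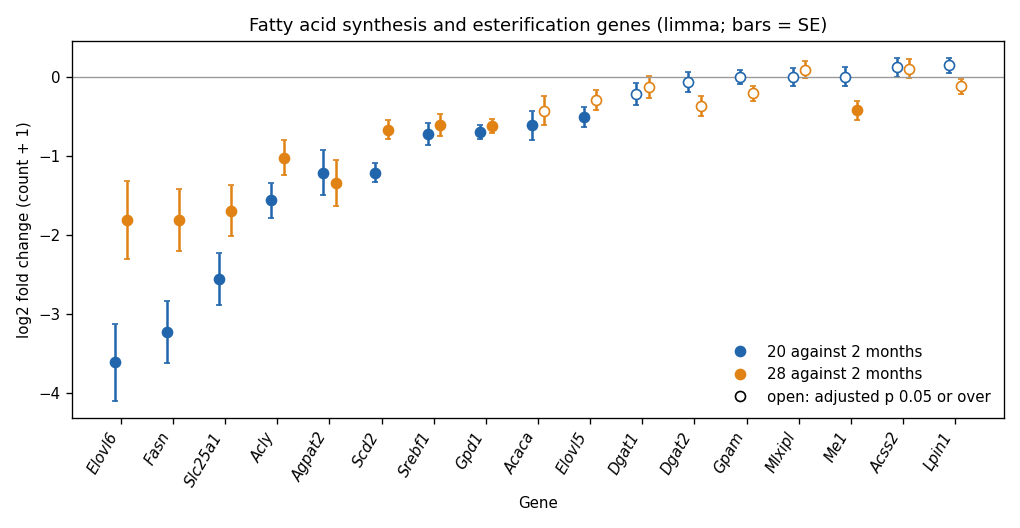
Difference in log2 (normalized count + 1) from 2 m (vertical axis, limma, bars are the SE) for 17 genes of fatty acid synthesis and esterification, ordered by the 20-m value, with 20 m in blue and 28 m in orange and open points where the adjusted p is 0.05 or more. The points at the left, Elovl6, Fasn and Slc25a1, are lower at 20 m than at 28 m, and no filled point lies above 0.

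Genes of lipid uptake and lipolysis did not fall as a group. Of 12, 3 rose at 20 m (9.42% of all genes), the fatty acid transporter Cd36 (0.74, adjusted p = 0.00934), the muscle fatty acid binding protein Fabp3 (0.82, adjusted p = 0.00445) and the droplet protein Plin5 (0.69, adjusted p = 0.0433). In the same contrast 2 fell (7.13% of all genes), among them G0s2, an inhibitor of adipose lipase (-0.85, adjusted p = 0.0161), and the median was 0.23. Lpl, the lipase of capillary walls (0.44, adjusted p = 0.0716), and Pnpla2, the adipose triglyceride lipase (0.05, adjusted p = 0.804), were not called. At 28 m against 2 m Cd36 alone passed in limma, higher by 0.54 (adjusted p = 0.0471), where edgeR called 0 and DESeq2 1, and from 20 m to 28 m limma and edgeR called 0 of the 12 and DESeq2 called 3, with 5 at an unadjusted p under 0.05. Without the 2-m mouse 1, 2 rose and 1 fell at 20 m and 0 were called at 28 m, and without the mice numbered 3, 0 were called at either age. Without the 28-m mouse 2, 1 fell and 0 rose at 28 m.

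Of 11 brown fat genes, 1 rose at 20 m, Ppara, a receptor of fatty acids that muscle fibres also use (0.64, adjusted p = 0.00591), and 1 fell at 28 m against 2 m, the potassium channel Kcnk3 (-1.37, adjusted p = 0.0497). These shares are near those of all genes, of which 9.42% rose at 20 m and 6.24% fell at 28 m. The call at 28 m was not made by edgeR and was lost without the 2-m mouse 1 or the mice numbered 3. Cidea, a droplet protein of brown fat, and Zic1, a marker of classical brown adipocytes, had 28.3 and 38.5 normalized counts on average at 2 m and 45.0 and 49.3 at 20 m (adjusted p = 0.467 and 0.623). Of the 11 genes, 7 were lower at 20 m, with a median of -0.08, among them Ebf2, a factor of brown fat identity, at 294 ± 13.7 and 222 ± 12.6 (unadjusted p = 0.0129, adjusted p = 0.0665), and Elovl3, an elongase, at 35.5 ± 6.66 and 23.8 ± 10.6 (adjusted p = 0.313), both named after their values were seen. Of 12 regulators of adipocyte formation, 2 rose at 20 m, Foxo1 (1.13, adjusted p = 3.93e-05) and Klf15 (0.43, adjusted p = 0.0210). At 28 m Foxo1 remained higher than at 2 m (0.77, adjusted p = 0.000485), while 3 fell, among them Dlk1, which holds back differentiation (-1.72, adjusted p = 0.0361), and Stat5b (-0.55, adjusted p = 0.00653). From 20 m to 28 m limma and edgeR called 0 of the 12 and DESeq2 called 1 lower, with 10 lower (8 at an unadjusted p under 0.05) and a median of -0.37. Without the 2-m mouse 1, 1 regulator fell at 28 m against 2 m, without it and the 28-m mouse 2, 0 fell, and without the mice numbered 3, 1 rose at 20 m.

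Of 10 genes of fibro-adipogenic progenitors, 3 fell at 20 m (7.13% of all genes), Cd34 (-0.45, adjusted p = 0.00974), Pi16 (-0.66, adjusted p = 0.0390) and Gsn (-0.51, adjusted p = 0.0249), while at 28 m limma called 0 against either age. At 28 m against 2 m edgeR and DESeq2 each called 1, and 5 passed an unadjusted p under 0.05. Pdgfra, their defining receptor, differed by -0.19 at 20 m (adjusted p = 0.233), and Dcn by -0.16 (adjusted p = 0.585). All 10 were lower at 20 m, 6 of them at an unadjusted p under 0.05, with a median of -0.41 against -0.02 for all genes. At 28 m 9 were lower than at 2 m, with a median of -0.27 against -0.01. The summed level of the list ranged from 50900 to 76283 normalized counts at 2 m, from 45206 to 50539 at 20 m and from 46996 to 60403 at 28 m, and its part in the adipocyte levels was not tested. Without the mice numbered 3, 1 of the 10 fell at 20 m. Of 6 receptors that respond to hormones that act on fat and muscle or come from fat, limma and edgeR called 0 in any contrast, DESeq2 called 1 at each older age against 2 m, and 2 and 3 passed an unadjusted p under 0.05 there. Adipor1, the adiponectin receptor of muscle, differed by -0.02 at 20 m (adjusted p = 0.872), and Lepr, the leptin receptor, by 0.62 (adjusted p = 0.0598).

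Markers of other cells in the tissue were summed beside the adipocyte genes. The 5 macrophage genes in the table summed to between 2777 and 4062 normalized counts at 2 m, 2632 and 2683 at 20 m, and 2719 and 3767 at 28 m, and Lyz2 fell at 20 m (-0.54, adjusted p = 0.0221), a call that was lost without the 2-m mouse 1 or the mice numbered 3. The 5 endothelial genes, which mark cells that also make Fabp4, gave 9263 to 12733, 9287 to 10528 and 9995 to 11431 in order of age, with 0 called by limma, edgeR or DESeq2 in any contrast and 1 at an unadjusted p under 0.05, at 20 m. Of the 8 fibre genes, Pvalb, the calcium buffer of fast fibres, fell at 20 m (-0.85, adjusted p = 0.00200) and at 28 m (-1.03, adjusted p = 0.000560), the single call of limma and edgeR, while DESeq2 called 2 lower at 20 m and 4 at 28 m and Mb, myoglobin, was higher at 20 m and 28 m at an unadjusted p of 0.0226 and 0.0499. Mpo of the marrow list and Col2a1 of the cartilage list fell at both ages, both being high in the 2-m mouse 1. Both genes passed the filter only through the 2-m mice, so these calls support nothing. Of the marrow genes edgeR called 5 lower at each older age and DESeq2 called 0. Of the red blood cell and keratinocyte genes limma and DESeq2 called 0, with 0 at an unadjusted p under 0.05, and edgeR called 2 keratinocyte genes at 28 m. Without the 2-m mouse 1, 0 marrow genes were called at either age, 0 cartilage or bone genes at 28 m, and 1 red blood cell gene was higher at each older age. The marrow call at 28 m was also lost without the 28-m mouse 2, and both calls at 28 m without the mice numbered 3. The part of any of these cells in the adipocyte levels was not tested.

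**Figure D4:**
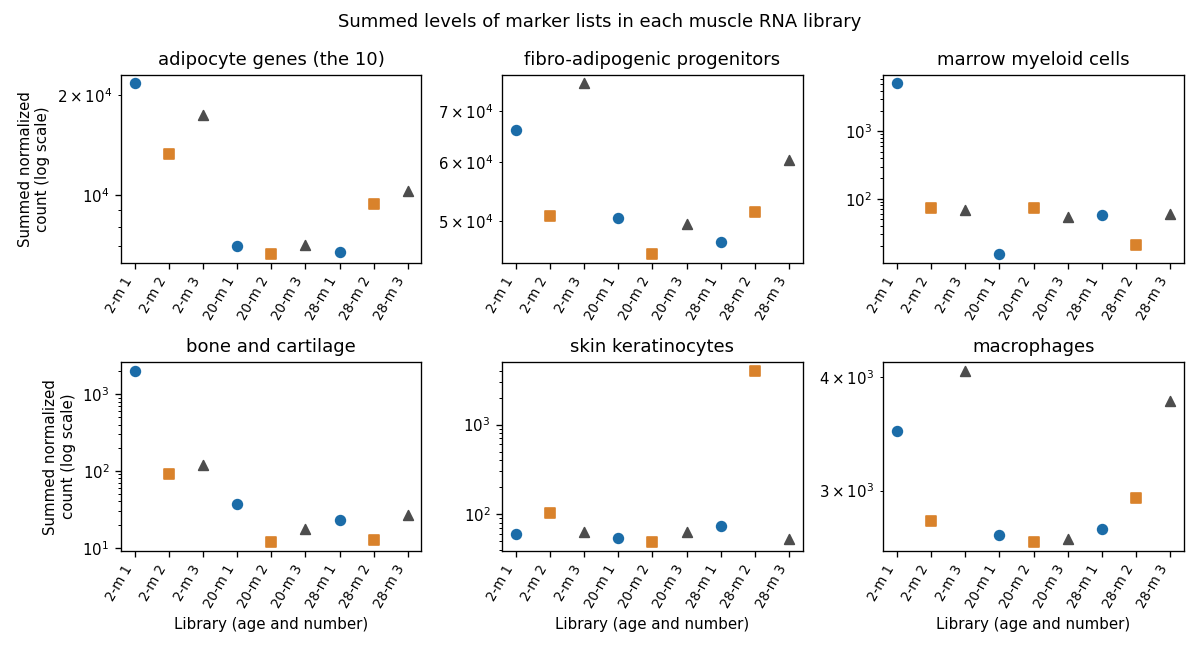
Summed normalized counts (vertical axes, log scale) of the 10 adipocyte genes and of 5 marker lists in each of the 9 mice (horizontal axis, age and library number, with the same shapes as the library numbers in the plot of the 10 genes). The adipocyte sum runs from 13317 to 21763 at 2 m, 6616 to 7055 at 20 m and 6744 to 10307 at 28 m, and the marrow and the bone and cartilage panels each have 1 point far above the rest, the 2-m mouse 1. Fabp4 and Scd1, which other cells also make, hold most of the adipocyte sum in each mouse.

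DNA methylation at the starts of the 10 genes was read from the MBD-seq of the pooled DNA. The signal is the mean normalized read count of the 5 bins of 500 bp that lie within 1 kb of the annotated start. At 2 m it was above the median of 18903 gene starts (8.55) for 9 of the 10 genes in muscle, and below it for Scd1 (8.01), whose start holds the most CpGs of the 10, 82 in 2500 bases. Pck1 had the highest signal in muscle, 58.2, 49.7 and 36.1 in order of age, and in T cells, 90.3, 119 and 109. Adipoq had 21.1, 17.0 and 16.7 in muscle and 18.7, 29.9 and 20.6 in T cells. In T cells, which are not adipocytes, the members' median was 31.5 at 2 m, against 24.1 in muscle, so the starts were captured in both tissues.

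The muscle signal was lower at 28 m than at 2 m in 9 of the 10 genes, and in Ucp1 it was 13.3 at 2 m and 13.8 at 28 m. The members' median log2 ratio was -0.32, whereas that of all starts was 0.25. The ratio of 28 m to 2 m was 0.620 at Pck1 (95% interval from counting error 0.526 to 0.729), 0.646 at Retn (0.519 to 0.802), 0.685 at Lep (0.553 to 0.848) and 0.797 at Cidec (0.647 to 0.982), and for the other 6 genes the interval held 1. Each age was 1 pool of 3 mice, so these intervals hold no spread between mice and no test between ages was possible. When each library was rescaled to the same sum, the medians moved to 0.11 for the members and 0.67 for all starts. The sign of the members' ratio was thus set by the scaling, and their median was below that of all starts under both. In T cells the log2 ratio was above 0 for 10 of the 10 genes, with a median of 0.31 against 0.22 for all starts. In muscle at 2 m the members' median signal was 24.1, against 8.55 for all starts, and the ratios were not matched for this level. The paper reports that highly methylated regions of muscle lost methylation with age and weakly methylated ones gained it. In the single bin that holds the start, the signal was higher at 28 m than at 2 m for 4 of the 10 genes, from 7.28 to 21.0 at Cfd, from 8.19 to 17.8 at Retn, from 1.82 to 7.65 at Plin1 and from 2.73 to 5.10 at Ucp1, from 33 reads or fewer each. The median log2 ratio in these single bins was -0.17 for the members and 0.71 for all genes. Of the genes whose RNA fell in both comparisons with 2 m, Cfd had 26.2, 20.4 and 21.7, Scd1 8.01, 6.40 and 7.27, and Cidec 31.8, 34.2 and 25.4 in muscle.

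**Figure D5:**
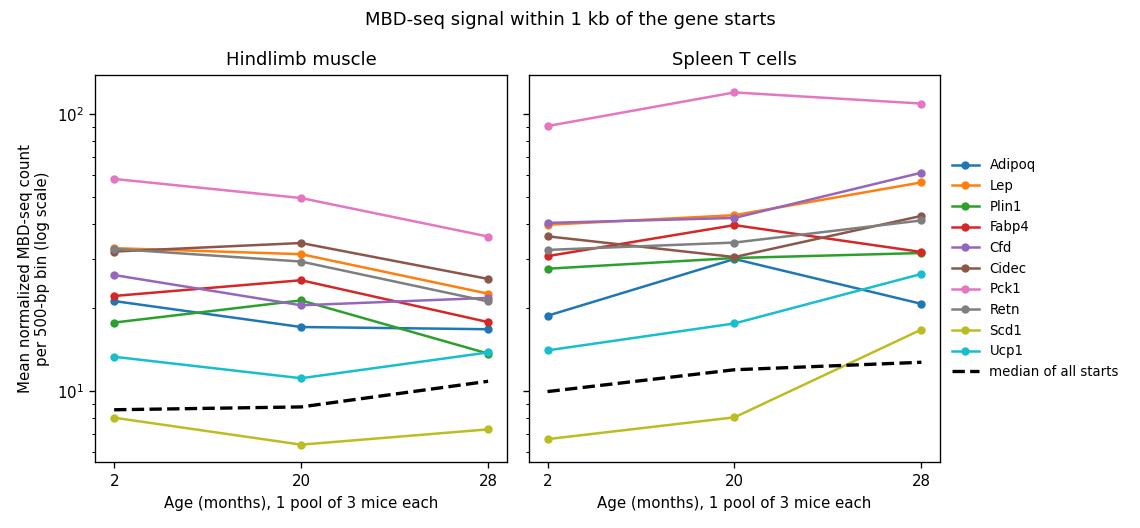
Mean normalized MBD-seq count per 500-bp bin within 1 kb of the start (vertical axis, log scale) of each adipocyte gene at 2, 20 and 28 months in muscle (left) and T cells (right), 1 pool of 3 mice per point, with the median of all starts dashed. Pck1 lies above all others in both tissues and Scd1 lies below the dashed line in muscle at each age.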

How the data were processed

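RNA-seq was made from hindlimb muscle of 9 mice and MBD-seq from pooled muscle and T-cell DNA. The deposited signal values of both tables are reads that the authors counted and divided by 1 DESeq2 size factor per library. They trimmed reads with Trim Galore, aligned RNA reads to mm10 with Hisat2 according to the methods (the labels name TopHat), and counted them per refSeq gene with htseq-count. MBD-seq reads were aligned with Bowtie2 and counted in 500-bp bins with bedtools. All values came out as whole reads within 0.0001 (100%). Alignment and counting were fixed in the table, so scaling was the only step of the authors that could be varied. The 5 rows that name no gene, between 37.9 and 47.7% of the reads of a library, were left out.

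The limma-trend fit (R 4.3.3, limma 3.58.1) used log2(normalized count + 1) of 13178 genes whose mean reached 10, in all 9 libraries together and without covariates beside age, two-sided, with Benjamini-Hochberg adjustment. Fold changes on that scale understate those of low genes. Alternatives were a filter at 50 or none, a pseudocount of 5 or of 0.1, the same sum per library, quantile normalization, the replicate block, a term for the libraries numbered 3, only the 2 ages compared, the rule of the study, each library left out, and count models fitted to the recovered reads, edgeR (4.0.16) and DESeq2 (1.42.0), which called 2200 and 2560 genes at 20 m against 2 m (limma 2181). Leaving out the 2-m library 1 with the 28-m library 2, or the 3 libraries numbered 3, was chosen after seeing the data.

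The 10 genes and all lists were chosen with earlier results of these data known. Of each list, called genes were named (the 4 with the largest difference where more were called) and up to 2 that were not. One marker list is not reported here. Positions are RefSeq on GRCm38. Intervals (95%) and the limit of 3 reads cover counting error only. The labels list a repeat round of muscle capture, and the muscle MBD-seq columns do not name the round they hold. The limma fit was tested on simulated data.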

Additional observations from a re-analysis of the deposited data

How the results depend on the processing

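The member counts depended on single mice. At 20 m against 2 m the 6 calls became between 3 and 7 when each library was left out in turn (7 without the 2-m library 2, the added one being Ucp1, for which that leaves out the single young mouse at 0), and 3 without the 2-m library 1 and the 28-m library 2. At 28 m against 2 m the 3 calls became between 1 and 5 when each library was left out (5 without the 2-m library 2, Ucp1 again among them, or the 28-m library 3), 1 without the libraries numbered 3, and 6 by the rule of a fold over 2. From 20 m to 28 m the count of 0 became 1 with only those ages in the fit, 1 with DESeq2 and 2 by the fold rule. Directions turned only in members that were not called. Lep turned to -0.0013 at 20 m without the libraries numbered 3 and, with each library left out, ran from -0.82 to 0.19 at 28 m against 2 m, positive without the 28-m library 1. From 20 m to 28 m the same ranges were -0.14 to 0.0974 for Fabp4, negative without the 28-m library 2 (also with the 2-m library 1 left out) and at -0.03 without the 20-m library 2, -0.55 to 0.0305 for Cidec and -2.18 to 0.17 for Pck1, the last 2 positive without the 28-m library 1. The median MBD-seq log2 ratio, -0.32, was -0.17 with the start bin alone and 0.11 with each library at the same sum. Libraries that shared a number came from different mice of different ages and were not pairs. Only those numbered 3 deviated together in every contrast (Pearson r over genes 0.109, 0.150 and 0.161). For the numbers 1 and 2, r ran from -0.0401 to 0.0998. What the libraries numbered 3 share was not tested. With the replicate block 7 members fell at 20 m and 4 at 28 m, Fabp4 being added (adjusted p = 0.0372 and 0.0464), 0 changed from 20 m to 28 m, and 3000 genes in all were called at 20 m against 2181 without it. Rescaling to the same sum called 586 genes at 20 m and 554 at 28 m, against 2181 and 1814. Across the 22 alternatives Cfd, Retn and Scd1 at 20 m and Scd1 at 28 m passed in 22. Of all values for single members, 20, 4 and 0 lost the call in the 3 contrasts, 9, 9 and 2 gained it, and 1, 1 and 5 turned. The causes were not tested. Pck1 and Ucp1, whose 2-m mice varied most, passed under some of these settings, Ucp1 by edgeR at 20 m and 28 m (adjusted p = 0.0252 and 0.0398) and Pck1 at 28 m with each library at the same sum (0.0285).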
